A study of Rattus norvegicus with 30 samples.

Results

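The comparison described here set 5 cultures of rat hepatocytes kept for 48 h with 10 mM sodium valproate against 5 cultures kept for 48 h with 0.5 mM of the same drug. These 10 cultures were chosen by their titles, and they are 10 of the 30 cultures of the series, which holds 5 cultures for each of 3 solutions (water, low dose, high dose) at each of 2 times (24 h, 48 h). All were primary hepatocytes of male Sprague Dawley rats from one supplier, thawed from frozen stocks, attached to collagen, covered with Matrigel and dosed on day 3 of culture from solutions made up in water. Each sample was the total RNA of 1 well, hybridised to 1 oligonucleotide array. The labels call the 5 wells of a group independent cultures. How many donor animals they came from and how the plates were laid out is not stated in the labels, and p-values therefore describe well-to-well spread.

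Valproate is a drug against epilepsy and bipolar disorder with the build of a small branched fatty acid. Inside the hepatocyte it is joined to coenzyme A, exported as a carnitine or glucuronide conjugate, and oxidised in mitochondria and by cytochrome P450. It also inhibits some histone deacetylases of the zinc-dependent classes. Its known liver effects in patients are microvesicular fat accumulation, raised blood ammonia and, rarely, liver failure. Setting the doses against each other, rather than each against water, asks which transcripts separate the high dose from the low one.

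Levels below are the deposited array signals, which carry no unit and can be compared between arrays for 1 probeset but not between probesets. Changes are differences of mean log2(signal + 16), 10 mM minus 0.5 mM, with the standard error of a linear model (limma) fitted to all 30 arrays, and a gene was called when its Benjamini-Hochberg adjusted p over 21729 probesets was under 0.05. Of 11604 genes tested, 6240 or 53.8% were called, 3479 (30.0%) higher and 2761 (23.8%) lower at 10 mM. Over single probesets the shares were 46.2% called, 26.5% higher and 19.7% lower. A change of at least 1 was called higher for 870 genes (7.50%) and lower for 713 (6.14%). The values of the 5 and the 5 cultures did not overlap at all for 4670 genes, or 40.2% (22.9% higher and 17.3% lower). The median change over all genes was 0.04 and the median size of a change was 0.39, and the gene groups below are read against these shares. Lists of genes with a known role were drawn up with earlier results of these data in view. From each list the members with the largest changes are named, and further members are named as well-known examples chosen after their values were seen.

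One of the 10 mM arrays stood apart. Each 48 h array was placed on a scale from 0, the mean of the other 0.5 mM arrays, to 100, the mean of the other 10 mM arrays. The genes used were those called by at least 1. For a dosed array they came from a fit without it, and for a water array from the fit to all 30 arrays. Arrays 1, 3, 4 and 5 at 10 mM lay between 99.97 and 105 for genes that were higher and between 96.9 and 112 for genes that were lower. Array 2 lay at 86.0 and 70.4, shifted towards the low dose for both sets of genes and more for the genes that fell. The 0.5 mM arrays lay between 1.88 and 9.38 for the higher genes and between -6.26 and 8.25 for the lower ones. Without 10 mM array 2, 934 genes were higher and 772 lower by at least 1. A second feature touched the low dose. Beta-actin is probed near both ends of its transcript, and the log2 ratio of the 3' probeset over the 5' one, which measures RNA integrity and labelling, was 2.76, 2.22 and 1.74 on 0.5 mM arrays 3, 4 and 5, against 1.32 and 1.05 on arrays 1 and 2 and 1.41 ± 0.08 (SD, n = 5) at 10 mM. Without those 3 arrays 3191 genes were higher and 2208 lower. That fit keeps only arrays 1 and 2 at 0.5 mM and so has less power. A call lost there, with a change of like size, does not show dependence on arrays 3, 4 and 5. The part of either feature in single results was not tested, and some results that move without these arrays are given below both ways. Others are given below with all arrays only. Without 0.5 mM arrays 3, 4 and 5 the changes of Gadd45a (1.23) and Tfr2 (-1.03) were smaller in size. Those of Hsph1 (2.03), Otc (-2.06) and Cpt1a (1.15) were larger.

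**Figure D1:**
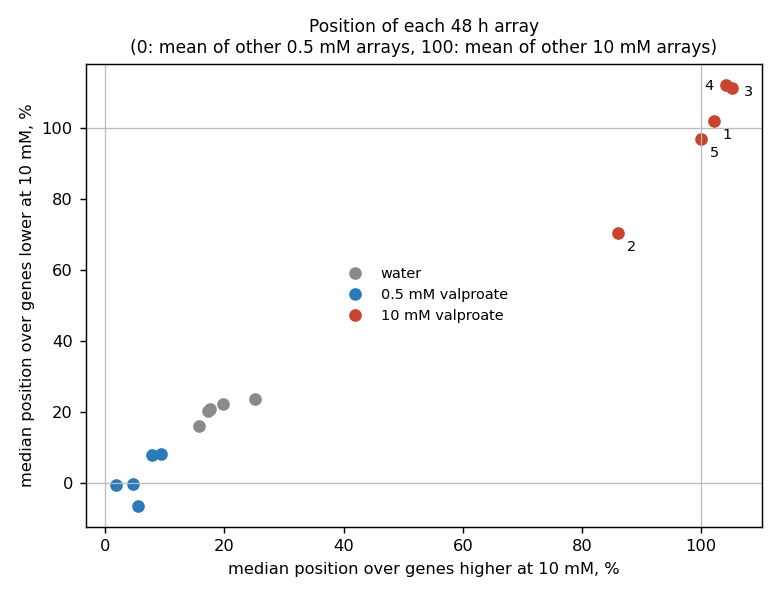
Position of each 48 h array between the doses, as the median over genes called higher (horizontal, %) and lower (vertical, %) at 10 mM, with 0 the mean of the other 0.5 mM arrays and 100 the mean of the other 10 mM arrays; numbers are replicates. Replicate 2 at 10 mM sits at 86.0 and 70.4 and the other 10 mM arrays at 96.9 or more. The water arrays sit between 15.8 and 25.1; since the genes were chosen with the 0.5 mM arrays at the far end, a place between the doses is partly built in for water.

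The 12 largest rises were led by Acot1, Crip1 and Hamp. Acot1, which encodes a thioesterase that splits long-chain acyl-CoA into free fatty acid and coenzyme A, read 21008, 15524, 20789, 20614 and 23861 in the 5 cultures at 10 mM and 177, 266, 279, 174 and 254 at 0.5 mM. No culture of one dose came near the other, and the change of 6.38 ± 0.33 (adjusted p = 3.51e-16) was the largest named here. Crip1, which encodes a small zinc-binding LIM protein, read 5934, 4350, 6073, 5478 and 6790 at 10 mM and 70.7, 70.6, 43, 56.5 and 63 at 0.5 mM, a change of 6.22 ± 0.22 (adjusted p = 6.15e-20). At 0.5 mM the mean of Crip1 lay below the level of the filter on low values, so this change is taken against signals near the low end of the array. This held for 6 of the 12 largest rises, Crip1 included.

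Soat1, the enzyme that esterifies cholesterol for storage, read 3868, 3359, 3852, 4339 and 4599 against 148, 79.5, 227, 118 and 179, a change of 4.66 ± 0.37 (adjusted p = 3.48e-12). Mcub, a subunit that dampens the mitochondrial calcium uniporter, rose by 4.57 ± 0.44 (adjusted p = 2.00e-10), with 1570, 1100, 1088, 1174 and 1275 at 10 mM and 17.2, 80.2, 28.4, 35.9 and 37.1 at 0.5 mM. Armcx2, an armadillo-repeat gene, rose by 4.37 ± 0.45. Their groups did not overlap, and the low-dose signals of Soat1, Mcub and Armcx2 scattered widely near the low end of the scale, which makes the ratios less exact than the direction. Cd24, a surface sialoglycoprotein of immature epithelium, read 4436, 3117, 4580, 4733 and 4739 at 10 mM and 177, 299, 256, 175 and 171 at 0.5 mM, a change of 4.24 ± 0.31 (adjusted p = 7.20e-13). Its lowest 10 mM value was that of array 2, still far above the highest value at 0.5 mM.

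The remaining large rises were Igfbp2, a binding protein of insulin-like growth factors, with 3.72 ± 0.35, and 4 genes of neuronal type: Uchl1 with 4.10 ± 0.46, Ndrg4 with 3.92 ± 0.35, Nefm with 3.81 ± 0.23 and Tubb2b with 3.65 ± 0.42. All 12 largest rises were separated by dose without overlap, as the rule for naming them required. The rule did not use the water cultures, and none of the 12 passed the test between 0.5 mM and water. Acot1, for example, had a mean level of 7.18 in water, 7.92 at 0.5 mM and 14.30 at 10 mM on the log2 scale.

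**Figure D2:**
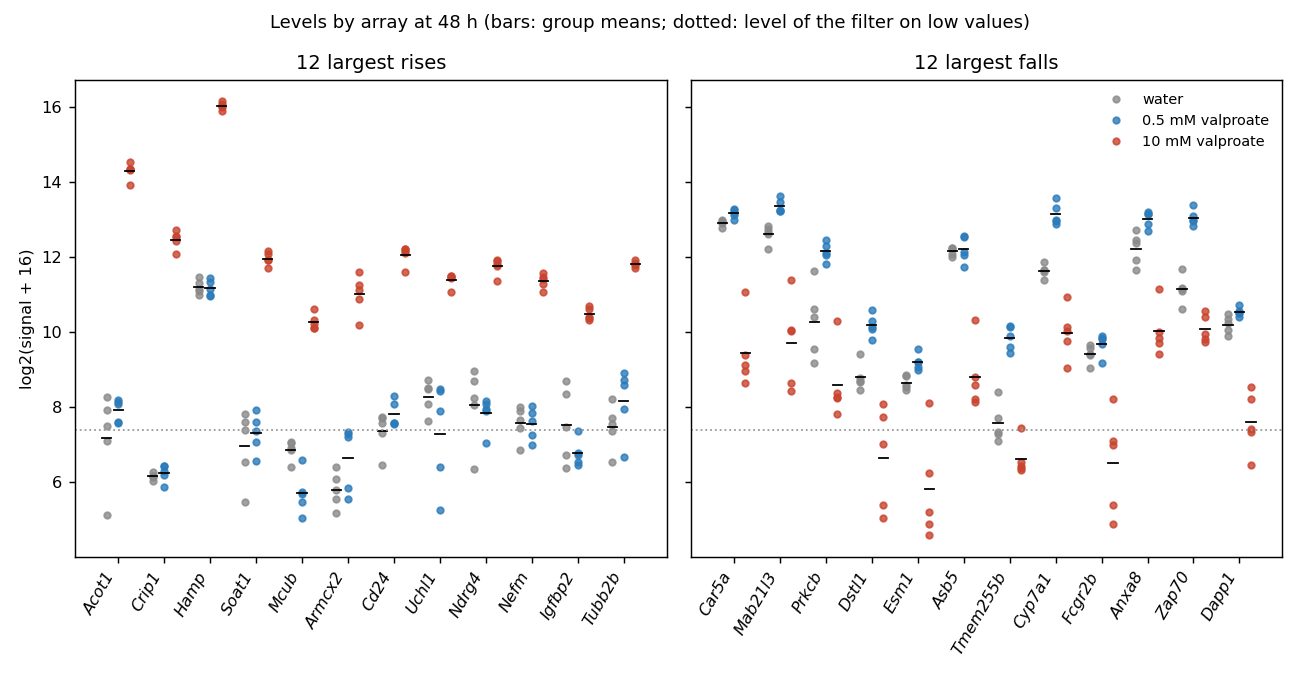
Levels on the log2(signal + 16) scale (vertical) of the 12 genes with the largest rise (left) and the 12 with the largest fall (right) at 48 h, 1 point per culture and a bar at each group mean (n = 5 per group). The red points (10 mM) sit apart from the blue points (0.5 mM) for every gene, and the highest red point of Prkcb and of Asb5 is that of 10 mM array 2.

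The largest falls mixed liver enzymes with genes of signalling. Car5a, the mitochondrial carbonic anhydrase that supplies bicarbonate to urea and glucose synthesis, read 653, 2132, 489, 388 and 539 at 10 mM and 9805, 9892, 9349, 8941 and 8205 at 0.5 mM. It fell by 3.73 ± 0.25 (adjusted p = 5.60e-14), and array 2 again held the highest value of its group. Without that array it fell by 4.14. All 5 values at 0.5 mM lay within a narrow band. Cyp7a1, which sets the pace of bile acid synthesis, read 1112, 1939, 856, 512 and 1031 at 10 mM and 12234, 7597, 10256, 8083 and 7948 at 0.5 mM, a fall of 3.17 ± 0.20 (adjusted p = 3.73e-14). Prkcb, a protein kinase C, read 288, 1246, 208, 291 and 316 against 3626, 4272, 4438, 5032 and 5613 and fell by 3.56 ± 0.33 (adjusted p = 1.17e-10).

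The other genes of this rank, all without overlap between the doses, were Mab21l3 (-3.65 ± 0.33), Dstl1 (-3.52 ± 0.39), Asb5 (-3.39 ± 0.24), Tmem255b (-3.22 ± 0.39) and Anxa8, an annexin (-2.99 ± 0.21). Esm1, the proteoglycan endocan, changed by -3.40 ± 0.40, Zap70, a kinase of the T cell receptor, by -2.95 ± 0.19, and Dapp1, an adaptor that binds phosphoinositides, by -2.95 ± 0.28. Fcgr2b, the inhibitory IgG receptor, changed by -3.16 ± 0.35. In Fcgr2b the 10 mM signals were 112, 284, 13.3, 25.8 and 122 and the 0.5 mM signals 909, 937, 880, 809 and 561, so the high-dose level varied widely around a mean below the filter level. The 10 mM means of Esm1, Dstl1 and Tmem255b also lay below that level, so the sizes of these falls rest on signals near the low end of the array. Esm1 read 8.04, 260, 20.7, 59.8 and 13.7 at 10 mM. In bulk RNA such as this, fewer cells of a type and less RNA per cell cannot be told apart.

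**Figure D3:**
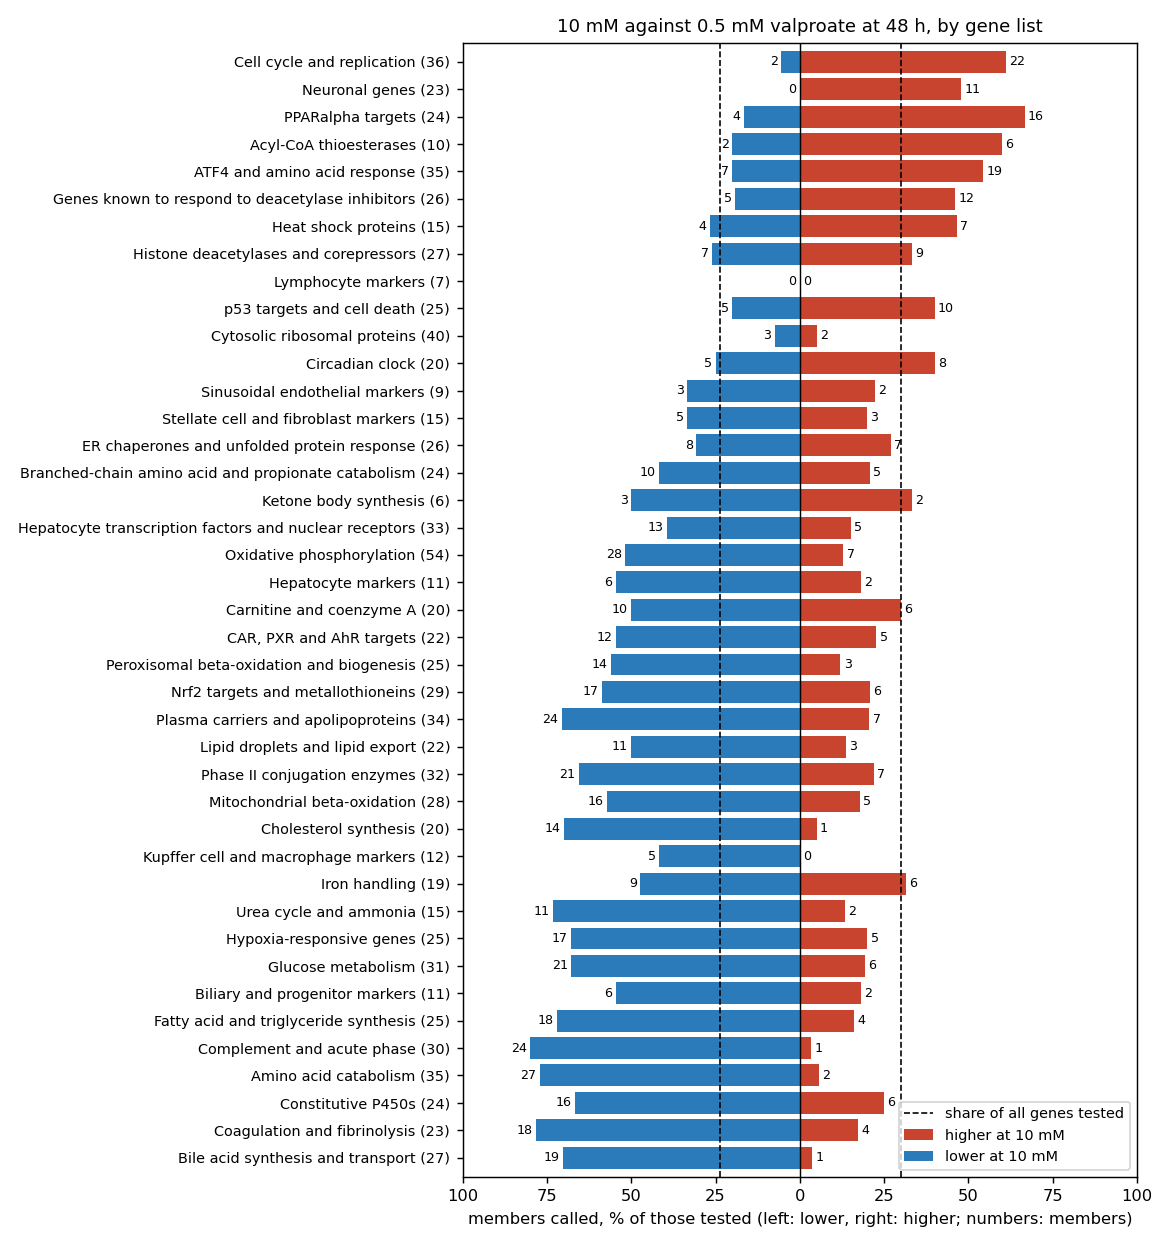
Share of the tested members of 41 gene lists called higher (right, red) and lower (left, blue) at 10 mM than at 0.5 mM after 48 h, in % of members tested (number in parentheses after each name), ordered by median change; numbers beside bars are members. Dashed lines mark the shares of all 11604 genes, 30.0% higher and 23.8% lower. PPARalpha genes lie beyond the dashed line on the right. The shares of the cell cycle and neuronal genes are not read against it. Of these, 36 of 42 and 23 of 39 on the array passed the filter on low values. Bile acid, coagulation, amino acid and complement genes lie far beyond the line on the left.

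Among the enzymes that release fatty acids from coenzyme A, 6 of 10 acyl-CoA thioesterases rose and 2 fell, with a median change of 0.46. Beside Acot1, the mitochondrial Acot2 rose from 7801, 7657, 9270, 8730 and 8929 to 21382, 17928, 20039, 19631 and 21443, a change of 1.24 ± 0.07 (adjusted p = 3.87e-15). Acot7 rose by 1.12, Acot13 by 0.55, Acot3 by 0.54 and Acot4 by 0.39. The liver enzyme Acot12, which acts on acetyl-CoA, fell by 0.82 ± 0.17 (adjusted p = 0.000210), and Acot9 fell by 0.43 ± 0.08 (adjusted p = 3.62e-05) with groups that overlapped. Acot1 to Acot4 are close copies of one another, and signal may be shared between their probesets.

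PPARalpha is the nuclear receptor that senses fatty acids and turns on their oxidation, and 16 of 24 of its known targets rose while 4 fell (median 0.48). Pdk4, which blocks entry of pyruvate into the citric acid cycle, read 40761, 34209, 41169, 44033 and 42754 at 10 mM and 6608, 6041, 5139, 5678 and 4754 at 0.5 mM, a change of 2.85 ± 0.10 (adjusted p = 1.11e-20). Fgf21, a fasting hormone made by the liver, rose by 2.55 ± 0.12 (adjusted p = 7.09e-17) from 5762, 4810, 3671, 4122 and 3524 to 26776, 24556, 25063, 26030 and 24396. The groups stayed far apart in both genes. Angptl4, an inhibitor of lipoprotein lipase, rose by 1.74 and Ucp2, an uncoupling protein, by 1.44. Cyp4a1, a fatty acid omega-hydroxylase much used as a marker of this receptor, rose by only 0.36 ± 0.08 (adjusted p = 0.000266), with 42354, 39836, 39367, 40797 and 44974 at 10 mM and 34249, 33728, 31183, 31291 and 31441 at 0.5 mM. Its level at the low dose was already 1.59 ± 0.08 above water, whereas Pdk4 did not pass the test between these 2 groups (-0.20 ± 0.10, low dose minus water). Cd36, a fatty acid transporter, was called with 0.59 ± 0.23 (adjusted p = 0.0368), but its groups overlapped, and without 0.5 mM arrays 3, 4 and 5 the change was 0.02 (adjusted p = 0.959). The targets that fell were Vnn1 (-1.27), Cidec (-0.83), Fabp1 (-0.47) and Pex11a (-0.26).

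The enzymes of beta-oxidation themselves went mostly the other way. Of 28 tested genes of the mitochondrial pathway, 5 rose and 16 fell (median -0.37). The rises were in activation and import of fatty acids: Cpt1a, the carnitine palmitoyltransferase that controls import of fatty acids, rose by 0.85 ± 0.12 (adjusted p = 4.32e-07) from 3664, 4008, 7113, 5154 and 4337 to 8935, 7203, 8475, 8859 and 9158, and the acyl-CoA synthetases Acsl3, Acsl4 and Acsl1 rose by 1.01, 0.50 and 0.26 and the carnitine carrier Slc25a20 by 0.34. The groups of Cpt1a were separate by a narrow margin, 7203 against 7113, with 0.5 mM array 3 the highest of its group. The falls included medium-chain synthetases and dehydrogenases. Acsm1, a mitochondrial synthetase for medium-chain acids, read 8346, 17491, 5718, 5903 and 9004 at 10 mM and 45628, 43514, 50867, 46916 and 44784 at 0.5 mM and fell by 2.44 ± 0.16 (adjusted p = 5.45e-14). Acsm2 fell by 1.72 ± 0.12, Acadvl, the very long-chain dehydrogenase, by 1.13, Echs1, the short-chain hydratase, by 1.00, Acads by 0.96 and Acadl by 0.81. Acadm, Hadha and Hadhb, which carry the central steps, did not pass the test, with changes of -0.17, -0.10 and 0.04.

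In peroxisomes, which shorten very long and branched chains, 3 of 25 tested genes rose and 14 fell (median -0.30). Decr2 fell by 1.03 ± 0.10, Phyh, which opens the breakdown of phytanic acid, by 0.95 ± 0.07, and Acox2, an oxidase of branched chains and bile acid intermediates, by 0.88. Pex3, which starts the assembly of the peroxisomal membrane, rose by 1.01 ± 0.12, and Amacr, a racemase of branched acyl-CoA, by 0.71 ± 0.09. That of Amacr was 0.41 (adjusted p = 0.000131) without 0.5 mM arrays 3, 4 and 5.

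Valproate is cleared in part as a carnitine ester and competes for coenzyme A. Of 20 genes of carnitine and coenzyme A handling, 6 rose and 10 fell (median -0.25). Bbox1, the last enzyme of carnitine synthesis, read 6914, 10055, 5758, 6178 and 7657 at 10 mM and 23965, 22877, 23187, 23510 and 22513 at 0.5 mM, a fall of 1.69 ± 0.11 (adjusted p = 4.55e-14). Pank1, a kinase that controls coenzyme A synthesis, fell by 0.84, while Slc22a5, the carnitine importer, rose by 0.82, Crat, carnitine acetyltransferase, by 0.83 and Crot, the peroxisomal octanoyltransferase, by 0.99 ± 0.09. Glyatl2 and Glyat, which join acyl-CoA to glycine, fell by 2.81 ± 0.18 and 1.60. In ketone body metabolism 2 of 6 genes rose and 3 fell. Bdh1, which interconverts the ketone bodies acetoacetate and beta-hydroxybutyrate, fell by 2.40 ± 0.18 (adjusted p = 8.91e-13), and Oxct1, the enzyme that lets tissues burn ketone bodies and is normally scarce in liver, rose by 1.60 ± 0.18 (adjusted p = 3.69e-09) from 481, 526, 453, 522 and 644 to 1297, 1363, 2083, 1720 and 1723.

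Fatty acid and triglyceride synthesis was lower at 10 mM for 18 of 25 genes and higher for 4 (median -0.76). Fasn, the fatty acid synthase, read 2107, 3545, 2032, 1813 and 2470 at 10 mM and 8689, 8296, 10863, 10625 and 10042 at 0.5 mM, a fall of 2.04 ± 0.12 (adjusted p = 8.06e-15) with groups well apart. Thrsp, a lipogenic nuclear protein, fell by 2.06 ± 0.19 and Lpin2, a phosphatidate phosphatase, by 2.05 ± 0.14. Acly, which makes acetyl-CoA from citrate, changed by -1.93, Scd, the stearoyl-CoA desaturase, by -1.52, Acaca, acetyl-CoA carboxylase, by -1.36 and the regulator Srebf1 by -0.86. The members that rose were the chain elongases Elovl2 (1.42 ± 0.11), Elovl5 (0.73 ± 0.09) and Elovl1 (0.16) and the desaturase Scd2 (0.58). Dgat1 and Dgat2, which make triglyceride, did not pass the test.

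Of 22 genes of lipid droplets and lipid export, 3 rose and 11 fell (median -0.35). Ces1d, a hydrolase that mobilises stored fat, fell by 2.61 ± 0.20 (adjusted p = 1.21e-12), Fabp4 by 1.98 ± 0.25, and Apob, the structural protein of exported lipoproteins, by 0.73 ± 0.08 (adjusted p = 2.28e-09). Hilpda, an inhibitor of fat breakdown, rose by 1.19 ± 0.10. Plin2, the main coat protein of hepatocyte lipid droplets, read 61131, 61827, 54101, 56126 and 55780 at 10 mM and 51849, 50863, 51572, 49391 and 47654 at 0.5 mM. Its change of 0.20 ± 0.06 (adjusted p = 0.00552) was small, and without 0.5 mM arrays 3, 4 and 5 it was 0.17 (adjusted p = 0.0970). In cholesterol synthesis 1 of 20 genes rose (Ggps1, by 0.47) and 14 fell (median -0.40), led by Sqle, squalene epoxidase, with a fall of 1.07 ± 0.10, and Lss, lanosterol synthase, with a fall of 0.98 ± 0.10.

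Of the 41 lists, that of bile acid genes had the lowest median, -1.30, with 19 of 27 tested genes lower and 1, Amacr, higher. Hepatocytes make bile acids from cholesterol, conjugate them, secrete them at the canaliculus and take them back from blood at the opposite membrane. Along the synthetic route Cyp7a1 was followed by Cyp8b1 with a fall of 2.23 and Cyp27a1 with a fall of 1.64, and the conjugating enzymes Slc27a5 and Baat each fell by 2.25. Slc10a1, the sodium-dependent importer of bile acids, read 3510, 5031, 1601, 1522 and 2612 at 10 mM and 21756, 20794, 13234, 15561 and 16250 at 0.5 mM. It fell by 2.73 ± 0.21 (adjusted p = 1.23e-12), and among the high-dose cultures array 2 was the highest. The organic anion importers Slco1a4, Slco1a1, Slco2b1 and Slco1b2 changed by -2.56, -1.97, -1.80 and -1.30. At the canaliculus Abcc2 fell by 1.49 and Abcb11, the bile salt export pump, by 1.36. Abcc3, an exporter to blood, fell by 2.42 ± 0.17 (adjusted p = 1.52e-13). Nr1h4, the bile acid receptor FXR, and its target Nr0b2 did not pass the test, with changes of -0.06 and 0.41.

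The promoter of Slc10a1 is shown because it holds, close to the start, the motif GTTAAT, to which each arm of hepatocyte nuclear factor 1 binds; this is a factor of many liver-specific genes. The 250 bases before the start of the gene lie at chr6:106357945-106358194 on the minus strand of build GRCr8, from RefSeq, with the motif in capitals.
Slc10a1: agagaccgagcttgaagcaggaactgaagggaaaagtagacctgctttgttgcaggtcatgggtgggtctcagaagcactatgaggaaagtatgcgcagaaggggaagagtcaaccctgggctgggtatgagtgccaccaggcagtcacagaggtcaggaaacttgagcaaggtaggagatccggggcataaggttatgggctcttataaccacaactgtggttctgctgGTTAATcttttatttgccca
The motif begins 20 bases before the start. Read on both strands over windows of 250 bases before and 50 after the start, GTTAAT was found in 7.37% of all 27457 promoters in the RefSeq table, in 4.58% of the 9666 tested genes matched to it, in 6.90% of genes lower by at least 1 and in 5.30% of those higher by at least 1. In the bile acid list 3 of 22 matched promoters held it and in the coagulation list 6 of 18. Such a match describes letters and does not show a factor at work. Cyp7a1 has no entry in the table.

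The urea cycle, which turns ammonia into urea, was lower for 11 of 15 genes and higher for 2 (median -0.52). Below Car5a, the largest falls were in the mitochondrial steps: Otc, ornithine transcarbamylase, read 2194, 2678, 1971, 1644 and 2325 at 10 mM and 9692, 8287, 4511, 5450 and 5776 at 0.5 mM and fell by 1.59 ± 0.22 (adjusted p = 2.16e-07), and the ornithine carrier Slc25a15 fell by 1.53. Cps1, carbamoyl phosphate synthetase and the entry enzyme, read 52594, 48874, 50418, 50988 and 54276 against 68124, 64415, 67387, 64504 and 65630, a fall of 0.36 ± 0.05 (adjusted p = 9.58e-07) that was small in size but without overlap. Ass1 fell by 0.82, Arg1 by 0.76 and Nags, which makes the activator of Cps1, by 0.52. Glul, glutamine synthetase, which traps ammonia, rose by 0.32 ± 0.07, and Asl rose by 0.24 ± 0.08 with groups that overlapped. Without 0.5 mM arrays 3, 4 and 5 the rise of Glul was 0.18 (adjusted p = 0.0629) and that of Asl 0.37.

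Of 35 genes of amino acid catabolism, 27 fell and 2 rose (median -0.79). Ftcd, of histidine breakdown, read 4791, 10977, 2724, 2607 and 4771 at 10 mM and 33077, 30664, 41012, 34648 and 32793 at 0.5 mM and fell by 2.93 ± 0.21 (adjusted p = 4.99e-13). Gldc, the glycine decarboxylase, read 2203, 3268, 1698, 2103 and 2281 against 11751, 12907, 11913, 15682 and 17904 and fell by 2.61 ± 0.15 (adjusted p = 1.49e-15). In the chain from choline to glycine, Chdh changed by -2.60, Bhmt by -2.54, Sardh by -2.21 and Dmgdh by -1.55. Gnmt and Mat1a, which use and make S-adenosylmethionine, changed by -2.27 and -2.07. The rises were Aass, of lysine breakdown, with 0.74 ± 0.09, and Got1, aspartate aminotransferase, with 0.51 ± 0.12, of which the latter was 0.25 (adjusted p = 0.163) without 0.5 mM arrays 3, 4 and 5. Among 24 genes for branched-chain amino acids and propionate, 5 rose and 10 fell. Aldh6a1, an enzyme of valine breakdown, fell by 1.44 ± 0.08 (adjusted p = 3.87e-15), Abat by 1.04 ± 0.13, and Mmut, methylmalonyl-CoA mutase, by 1.00, while Ppm1k, the phosphatase that activates the branched-chain ketoacid dehydrogenase, rose by 0.89 ± 0.12.

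Glucose metabolism showed 21 of 31 genes lower and 6 higher (median -0.66). Pc, pyruvate carboxylase, which starts glucose synthesis in mitochondria, read 2454, 3035, 2204, 2359 and 2923 at 10 mM and 9844, 8693, 14758, 12545 and 13535 at 0.5 mM and fell by 2.17 ± 0.15 (adjusted p = 1.90e-13). Slc37a4, the transporter that feeds glucose-6-phosphate to its phosphatase, fell by 2.06 ± 0.10 (adjusted p = 3.44e-17), and the glycolytic Pfkl and Pklr by 1.98 and 1.48. Pck1, the cytosolic enzyme that commits to glucose synthesis, went the other way, from 2323, 1767, 2584, 2049 and 1926 to 7919, 6927, 9181, 9349 and 10254, a rise of 2.03 ± 0.20 (adjusted p = 3.89e-10). Ldhb, the lactate dehydrogenase subunit of heart and other tissues, rose by 2.33 ± 0.10 (adjusted p = 6.61e-18) from 1113, 1309, 1378, 1442 and 1344 to 6785, 5523, 6907, 7577 and 6651, whereas Ldha fell by 0.50. The 2 subunits thus moved in opposite directions.

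Genes known to respond to low oxygen were lower for 17 of 25 and higher for 5 (median -0.66). This list shares glycolytic genes with the previous one. Egln3, an oxygen-sensing prolyl hydroxylase, read 3101, 5537, 3171, 3593 and 3824 at 10 mM and 10044, 12699, 17363, 18834 and 18436 at 0.5 mM and fell by 2.00 ± 0.19 (adjusted p = 2.06e-10). Adm, a vasodilator peptide, fell by 1.98 ± 0.21, Lox by 1.92 ± 0.19 and Vegfa by 1.32. Hif1a itself rose by 1.22 ± 0.09 (adjusted p = 2.11e-12), from 7626, 6233, 5157, 7333 and 7423 to 16052, 13409, 16336, 17615 and 14644.

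Iron handling held one of the sharpest contrasts between the doses. Hamp encodes hepcidin, the liver hormone that lowers iron in blood by binding the exporter ferroportin, and it read 66740, 60719, 70006, 72991 and 65913 at 10 mM and 1985, 2267, 2794, 2558 and 2010 at 0.5 mM. The groups were tight and far apart, with a change of 4.86 ± 0.11 (adjusted p = 1.16e-25). Hamp is turned on through bone morphogenetic protein (BMP) signalling, and Id1, a direct target of that pathway, rose by 2.29 ± 0.15 (adjusted p = 4.63e-14) from 1289, 990, 1136, 1304 and 1014 to 5935, 5173, 5614, 5819 and 5587, and the ligands Bmp6 and Bmp2 rose by 1.33 and 0.66. Components on the membrane moved the other way: Tfr2, a sensor of iron-loaded transferrin, fell by 1.42 ± 0.15 (adjusted p = 2.45e-09), Hjv, the BMP coreceptor hemojuvelin, by 1.40, Hfe by 0.82 and the receptor Bmpr1a by 0.56. Slc40a1, ferroportin, fell by 1.08 and Hmox1, which frees iron from heme, by 1.81 ± 0.14 (adjusted p = 2.91e-12). In the whole list 6 of 19 genes rose and 9 fell (median -0.48). Smad6 and Smad7, inhibitors of the pathway and also its targets, did not pass the test, with changes of -0.48 and 0.45.

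The promoter of Hamp is shown because the hexamer GGCGCC, known as its BMP response element, lies in it. The 250 bases before the start lie at chr1:95300272-95300521 on the minus strand of build GRCr8, from RefSeq, with the hexamer in capitals.
Hamp: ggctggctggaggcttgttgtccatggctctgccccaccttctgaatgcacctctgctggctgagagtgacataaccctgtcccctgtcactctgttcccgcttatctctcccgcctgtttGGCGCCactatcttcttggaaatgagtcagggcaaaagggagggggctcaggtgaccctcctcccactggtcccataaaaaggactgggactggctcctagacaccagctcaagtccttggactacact
The hexamer begins 129 bases before the start. The same letters, which read alike on both strands, occur in 20.7% of the promoters of tested genes and in 21.2% of those of genes higher by at least 1, shares that lie close together.

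Among genes of the ATF4 and amino acid response, 19 of 35 rose and 7 fell (median 0.35). ATF4 is the transcription factor of the integrated stress response, and its targets include Ddit3, the factor CHOP, which rose by 1.69 ± 0.09 (adjusted p = 5.60e-16) from 2886, 2549, 2827, 2485 and 2222 to 8783, 7772, 9600, 8653 and 7286. Atf3 rose by 1.37, Psph, of serine synthesis, by 1.33, Gdf15, a stress hormone, by 1.14 and Atf4 itself by 0.35. Fgf21, named above, also belongs to this list. Falls were led by Vldlr, a lipoprotein receptor, with -1.65 ± 0.12 and Shmt2, of mitochondrial one-carbon metabolism, with -1.45 ± 0.10. Asns, a classical target, rose by 0.57, whereas Mthfd2 (-0.01), Psat1 (0.08) and Phgdh (-0.13) did not pass the test.

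Chaperones of the endoplasmic reticulum gave no common direction, with 7 of 26 higher and 8 lower (median -0.10). Sdf2l1 rose by 1.19 ± 0.08 and Selenos by 1.13 ± 0.06, the main chaperone Hspa5 rose by 0.15, and Xbp1, a regulator of the unfolded protein response, fell by 0.48 ± 0.04 (adjusted p = 5.89e-11). Of 15 heat shock genes 7 rose and 4 fell. Hspb1, a small heat shock protein, read 19797, 18186, 19375, 20506 and 19604 at 10 mM and 4982, 5516, 5882, 5226 and 5037 at 0.5 mM, a change of 1.87 ± 0.08 (adjusted p = 3.28e-18). Cryab, a related small protein, fell by 1.74 ± 0.11 (adjusted p = 3.85e-14), so these 2 relatives moved apart. Hsph1 rose by 1.40 ± 0.17 and Hspa1a by 1.00. Hspa9 was called lower on its brightest probeset, -0.44 ± 0.05, but another of its probesets was called higher.

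Targets of the antioxidant factor Nrf2 were lower for 17 of 29 and higher for 6 (median -0.30). Aox1, aldehyde oxidase, fell by 2.58 ± 0.14 (adjusted p = 1.48e-15) and Abcc3 and Hmox1 as given above, while Gstp1, a glutathione transferase that is normally low in adult liver, rose by 1.06 ± 0.08 (adjusted p = 9.09e-13) and Akr1b8 by 0.90 ± 0.15. Gclc and Gclm, which limit glutathione synthesis, fell by 0.46 and 0.49, and Nqo1 rose by 0.37. Of 25 genes of the p53 response and cell death, 10 rose and 5 fell (median 0.03). Gadd45a, a growth arrest gene, read 25788, 21200, 23948, 23115 and 23336 at 10 mM and 10708, 9358, 4682, 6440 and 5942 at 0.5 mM, a change of 1.72 ± 0.17 (adjusted p = 2.56e-10), and Phlda3 rose by 1.31 ± 0.09. Casp8, an initiator caspase, fell by 0.88 ± 0.13 and Bcl2l11, a death activator, by 1.02 ± 0.17. Without 0.5 mM arrays 3, 4 and 5 the change of Bcl2l11 was -0.60 (adjusted p = 0.0193). Cdkn1a, the inhibitor p21 and a standard marker of both p53 and deacetylase inhibition, did not pass the test between the doses. Its signals were 4414, 4153, 4845, 4651 and 4264 at 10 mM and 3854, 4917, 8518, 6185 and 5903 at 0.5 mM, a difference of -0.35 ± 0.16 (adjusted p = 0.0796), and the probesets of the gene disagreed in direction.

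The drug-metabolising P450s that hepatocytes express without induction were lower for 16 of 24 and higher for 6 (median -0.93). Cyp2d2 read 3577, 7674, 3048, 3175 and 4017 at 10 mM and 21003, 20946, 25648, 22872 and 21750 at 0.5 mM and fell by 2.47 ± 0.14 (adjusted p = 2.65e-15). Cyp2c12 fell by 2.64 ± 0.20 and the male-specific Cyp2c11 by 1.66. Cyp2e1, the ethanol-oxidising form, rose by 0.61 ± 0.10 (adjusted p = 3.59e-06) from 3733, 3008, 2779, 3027 and 2373 to 4833, 4512, 4401, 4325 and 4460, Cyp2j10 by 1.09 ± 0.11 and Cyp4b1 by 1.00 ± 0.23. Several of these genes belong to clusters of close copies, so a probeset can hold signal of more than 1 of them.

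Targets of the xenobiotic receptors CAR, PXR and AhR were lower for 12 of 22 and higher for 5. Cyp1a1, the standard target of AhR, read 8117, 13914, 6466, 7654 and 9369 at 10 mM and 31162, 32904, 30064, 35386 and 35786 at 0.5 mM and fell by 1.91 ± 0.19 (adjusted p = 5.57e-10). Cyp3a18 fell by 1.59 ± 0.12, the receptors Nr1i3 (CAR) and Nr1i2 (PXR) by 1.25 and 0.96 and Por, the electron donor of all microsomal P450s, by 1.37. Cyp3a9 rose by 1.27 ± 0.10 and Cyp2b3 by 1.10 ± 0.08. In phase II conjugation 21 of 32 genes fell and 7 rose (median -0.37), with Nat8, an acetyltransferase, lower by 2.20 ± 0.15 and Gsta3 by 1.69 ± 0.11, and Tpmt, which methylates thiopurines, higher by 1.17 ± 0.10.

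Some histone deacetylases are direct targets of valproate, and the list used here is wider than these. Among 27 genes of histone deacetylases and their corepressors, 9 rose and 7 fell (median 0.13). Hdac1, a nuclear class I enzyme, read 4964, 4555, 5049, 5322 and 5368 at 10 mM and 1395, 1548, 432, 690 and 923 at 0.5 mM, and its change of 2.46 ± 0.25 (adjusted p = 5.75e-10) was the largest of the list. The groups did not overlap, and at 0.5 mM the arrays with the highest beta-actin ratio held the lowest values. With that ratio in the model the change was 2.01, and without 0.5 mM arrays 3, 4 and 5 it was 1.77. Hdac6 rose by 0.91 ± 0.26, Hdac2 by 0.38 and Hdac3 by 0.34. The rise of Hdac6 was 1.43 (adjusted p = 0.000666) without 0.5 mM arrays 3, 4 and 5. Hdac10 fell by 0.80 ± 0.23 (adjusted p = 0.00423), Hdac11 by 0.79 ± 0.23 (adjusted p = 0.00622), Hdac5 by 0.71 and the mitochondrial sirtuin Sirt4 by 1.06 ± 0.12 (adjusted p = 1.52e-08). Without 0.5 mM arrays 3, 4 and 5 neither Hdac10 (-0.70, adjusted p = 0.0777) nor Hdac11 (-0.36, adjusted p = 0.362) passed the test.

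Of 26 genes that deacetylase inhibitors are known to move in other cells, 12 rose and 5 fell (median 0.27), with Crip1, Nefm and Tubb2b in front. Tubb3, a neuronal beta-tubulin, rose by 2.22 and Cdkn1c, the cell cycle inhibitor p57, by 2.20. Klf6 fell by 0.43 and Tgm2 by 0.42. Without 0.5 mM arrays 3, 4 and 5 the list held 10 higher and 1 lower.

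Of 39 neuronal genes on the array only 23 passed the filter on low values, and 11 of these were called higher and 0 lower (1 lower at an unadjusted p under 0.05). A neuronal gene that is silent at 0.5 mM could pass the filter only by being high elsewhere, so this count is given without further reading. Beyond the genes above, Bex4 rose by 3.53, Snap91 by 2.07, Eno2, the neuronal enolase, by 1.99, Stmn3 by 1.95, Scg5 by 1.91, Nefl by 1.71 and Mapt, the tau protein, by 1.23. Synaptic genes such as Snap25 (-0.17), Syp (-0.15), Syt1 (-0.13) and Syn1 (-0.05) did not pass the test.

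Genes of the cell cycle and DNA replication had the highest median of the 41 lists, 0.91, with 22 of 36 higher and 2 lower. Of 42 on the array 36 passed the filter on low values. A member that is low at 0.5 mM could pass by being high elsewhere, so median and count are given without further reading. Primary hepatocytes in such cultures seldom divide. Ccne1, the cyclin that drives entry into DNA synthesis, read 1351, 945, 1355, 1306 and 1188 at 10 mM and 137, 70.8, 340, 170 and 61.1 at 0.5 mM, a rise of 3.07 ± 0.37 (adjusted p = 2.18e-08). Gmnn, geminin, a brake on replication licensing, rose by 2.85 ± 0.39 (adjusted p = 2.48e-07) from 467, 593, 116, 504 and 707 to 2560, 2218, 3399, 3822 and 3773. Both genes scattered widely at the low dose and little at the high dose, and the mean of Ccne1 at 0.5 mM lay below the filter level. Cdt1, the partner of Gmnn, rose by 2.18 and Ccne2 by 2.49. The helicase subunits Mcm4 and Mcm6 rose by 2.40 and 2.28, the primase Prim1 by 2.19 and Cdk2 by 1.62. Genes of mitosis were mixed: Aurkb rose by 1.73, Ccnb1 by 1.16 and Aurka by 1.04, whereas Bub1 (0.04), Cenpf (-0.31), Birc5 (0.22), Cdc20 (0.69) and Top2a (0.76) did not pass the test. Tk1, thymidine kinase, fell by 1.51 ± 0.09 (adjusted p = 6.88e-15), against the direction of the list, and Cdk4 fell by 0.32 ± 0.10 with groups that overlapped. Without 0.5 mM arrays 3, 4 and 5, Cdk4 changed by -0.24 (adjusted p = 0.191), and 20 members were higher and 1 lower.

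The promoters of Ccne1 and Hdac1 are shown because both genes rose and both promoters hold several GC boxes (GGGCGG, the site of Sp1-type factors), in capitals. The 250 bases before each start lie on the minus strand at chr1:99927910-99928159 and chr5:147165388-147165637 of build GRCr8, from RefSeq.
Ccne1: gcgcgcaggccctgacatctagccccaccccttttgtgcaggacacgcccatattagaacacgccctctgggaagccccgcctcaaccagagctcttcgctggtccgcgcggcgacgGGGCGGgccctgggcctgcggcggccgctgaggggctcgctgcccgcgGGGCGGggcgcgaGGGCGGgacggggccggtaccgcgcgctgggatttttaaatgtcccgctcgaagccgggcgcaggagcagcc
Hdac1: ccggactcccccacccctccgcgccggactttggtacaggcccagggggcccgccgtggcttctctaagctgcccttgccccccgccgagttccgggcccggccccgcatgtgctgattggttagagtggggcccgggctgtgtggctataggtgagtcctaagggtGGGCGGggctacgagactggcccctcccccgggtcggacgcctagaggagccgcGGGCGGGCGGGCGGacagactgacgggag
Ccne1 holds 3 copies and Hdac1 holds 4, of which 3 overlap. Over the windows of 300 bases and both strands, a GC box was found in 64.4% of 736 matched genes that were higher by at least 1, in 47.8% of 565 that were lower by at least 1, in 58.4% of those not called and in 61.0% of all genes tested. By list it was found in 22 of 29 promoters of the cell cycle, 13 of 14 of neuronal genes, 7 of 22 of the bile acid list and 4 of 18 of the coagulation list. The ratio of observed to expected CpG had a median of 0.78 in the higher genes, 0.54 in the lower and 0.76 in all tested. The lower genes thus held fewer GC boxes and CpG than the average tested gene, and the higher genes were close to that average. Nefm has no entry in the table.

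Plasma proteins are the main secreted product of hepatocytes. Of 23 genes of coagulation and fibrinolysis, 18 fell and 4 rose (median -0.97). F10, coagulation factor X, read 5851, 8588, 4796, 5069 and 5655 at 10 mM and 21429, 20475, 25215, 22449 and 21664 at 0.5 mM and fell by 1.92 ± 0.10 (adjusted p = 2.50e-16). Kng2l1, a kininogen, fell by 2.26 ± 0.13, Plg, plasminogen, by 1.64, Proc, protein C, by 1.43, F2, prothrombin, by 0.92 and Serpinc1, antithrombin, by 0.72. The 4 rises were 2 without 0.5 mM arrays 3, 4 and 5. Among the fibrinogen genes Fga rose by 0.58 ± 0.06 (adjusted p = 1.49e-09) and Fgg by 0.19. Fgb was called higher on its brightest probeset (0.40 ± 0.07) and lower on another. Of 30 genes of complement and the acute phase, 24 fell and 1 rose (median -0.77). C5, complement component 5, read 1119, 1477, 849, 829 and 1220 against 5098, 5373, 6067, 6431 and 7835 and fell by 2.49 ± 0.13 (adjusted p = 8.63e-16), C9, of the membrane attack complex, fell by 1.73 ± 0.10 (adjusted p = 7.73e-15), and C3 by 1.25. C4bpb, a chain of the C4b-binding protein, rose by 1.07 ± 0.10 (adjusted p = 7.69e-11).

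Among 34 carriers and apolipoproteins, 24 fell and 7 rose (median -0.33). Lcat, which esterifies plasma cholesterol, fell by 1.75 ± 0.09 (adjusted p = 8.63e-16) and Apoa5 by 1.58 ± 0.10 (adjusted p = 2.01e-14). Serpina6, the corticosteroid-binding globulin, rose by 2.78 ± 0.14 (adjusted p = 1.01e-16) from 384, 324, 430, 353 and 267 to 2374, 2182, 2649, 2840 and 2390. Alb, albumin, did not pass the test, with 68214, 72256, 61135, 71188 and 74408 at 10 mM, 73676, 82440, 77170, 72767 and 81567 at 0.5 mM and a difference of -0.16 ± 0.08 (adjusted p = 0.107). Igf1 and Ghr, a growth hormone target and the growth hormone receptor, fell by 1.00 and 1.08.

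Of 33 hepatocyte transcription factors and nuclear receptors, 13 fell and 5 rose (median -0.19). Foxa1, a pioneer factor of liver genes, read 207, 425, 37.2, 148 and 222 at 10 mM and 1373, 1025, 1286, 1055 and 1340 at 0.5 mM and fell by 2.74 ± 0.31 (adjusted p = 7.31e-09). Nr1h3, the oxysterol receptor LXRalpha, fell by 2.13 ± 0.14 (adjusted p = 7.51e-14) and Cebpa by 0.60. Hnf4a (0.15) and Foxa2 (0.25) did not pass the test, and Foxa3 rose by 0.40. Onecut1 rose by 0.51 ± 0.17 and Pparg by 0.61 ± 0.20, both with overlapping groups. Without 0.5 mM arrays 3, 4 and 5 the change of Pparg was again 0.61, with an adjusted p of 0.0723. In the circadian clock 8 of 20 genes rose and 5 fell (3 without 0.5 mM arrays 3, 4 and 5). The related repressors Bhlhe40 and Bhlhe41 moved in opposite directions, Bhlhe40 with a fall of 2.73 ± 0.16 (adjusted p = 7.17e-15) and Bhlhe41 with a rise of 2.35 ± 0.39 (adjusted p = 5.80e-06). Npas2 fell by 1.71 ± 0.17 and Hlf rose by 1.15 ± 0.10.

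Genes of oxidative phosphorylation were lower for 28 of 54 and higher for 7 (4 without 0.5 mM arrays 3, 4 and 5), by small steps (median -0.20). Ndufs8, of complex I, fell by 1.02 ± 0.06 (adjusted p = 1.88e-15) and Sdha, of complex II, by 0.91 ± 0.06 (adjusted p = 2.70e-14). Ndufb10 rose by 0.54 ± 0.06 and Ndufb8 by 0.67 ± 0.14, the latter with overlapping groups and 0.36 (adjusted p = 0.110) without 0.5 mM arrays 3, 4 and 5. Cytosolic ribosomal proteins were close to level: 2 of 40 rose and 3 fell (0 and 5 without 0.5 mM arrays 3, 4 and 5), with a median of -0.04 and named changes between -0.29 ± 0.06 for Rpl3 and 0.27 ± 0.06 for Rpl18.

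Markers of other liver cells were checked because isolated hepatocytes carry some of them along. Of 20 listed Kupffer cell and macrophage markers 16 were on the array and 12 passed the filter; 5 were lower at 10 mM (3 without 0.5 mM arrays 3, 4 and 5) and 0 higher, also at an unadjusted p under 0.05 (median -0.47). The summed signal of the 16 lay between 11192 and 16642 at 10 mM, between 28438 and 33915 at 0.5 mM and between 26646 and 29835 in water. The sum includes Cd14, a receptor for endotoxin that hepatocytes also make, with 4003, 8120, 2982, 2941 and 3585 at 10 mM, 22472, 19502, 18166, 17866 and 16852 at 0.5 mM and a fall of 2.23 ± 0.15 (adjusted p = 1.23e-13). Cd14 makes up most of the difference in the sum between the doses. C1qc fell by 1.67 ± 0.26, Cd74 by 0.94, C1qa by 0.49 and Lyz2 by 0.44, while Clec4f (-0.20), Csf1r (-0.35) and Cd68 (0.22) did not pass the test. Stellate cell and fibroblast markers summed to 39117 to 50703 at 10 mM and 59531 to 83366 at 0.5 mM, and 5 of 15 tested were lower, led by Lox and by Vim, vimentin, with a fall of 1.90 ± 0.10 (adjusted p = 6.02e-16), and 3 higher (1 without 0.5 mM arrays 3, 4 and 5). Timp1 rose by 0.81 (adjusted p = 5.90e-05) with overlapping groups, and by 1.10 (adjusted p = 1.32e-05) without 0.5 mM arrays 3, 4 and 5. Dcn, decorin, was called higher with 1.86 ± 0.48, but 10 mM array 2 read 26.7 against 316 to 415 in the other 4 cultures. The change of Dcn was 2.50 without that array and 1.43 (adjusted p = 0.0824) without 0.5 mM arrays 3, 4 and 5.

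Biliary and progenitor markers summed to 79288 to 103270 at 10 mM and 140440 to 161510 at 0.5 mM, with 6 of 11 lower and 2 higher. Krt8 and Krt18, keratins that hepatocytes share with bile duct cells, fell by 0.95 and 0.75, Anxa4 by 1.01 ± 0.08 and Ggt1 by 1.78 ± 0.17, whereas Cd24 and Prom1 (1.13 ± 0.18) rose. Endothelial markers summed to 3684 to 4250 and 3975 to 4684, ranges that overlap, with Esam, an adhesion molecule, higher by 2.26 ± 0.26 and Fcgr2b and Lyve1 lower (1 of 9 lower in place of 3 without 0.5 mM arrays 3, 4 and 5). None of 7 tested lymphocyte markers was called by limma, and 0 had an unadjusted p under 0.05. The hepatocyte markers summed to 424660 to 462950 at 10 mM and 496210 to 527580 at 0.5 mM, with 6 of 11 lower and 2 higher, led by Asgr1, the asialoglycoprotein receptor, with a fall of 1.06 ± 0.08 (adjusted p = 9.82e-13). The hepatocyte markers tested lay far above the filter level in both doses, with mean levels of at least 11.54 on the log2 scale, and the part of changes in cell make-up in the lists above was not tested.

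The water cultures place both doses, and for some genes the low dose lay beyond water on the side away from the high dose. Levels are given here on the log2(signal + 16) scale as mean ± SD (n = 5). The steps from water to 0.5 mM and from 0.5 mM to 10 mM share the 0.5 mM arrays, and the genes below were picked after their values were seen, so the order is a description. Cyp7a1 stood at 11.64 ± 0.17 in water, 13.15 ± 0.29 at 0.5 mM and 9.98 ± 0.68 at 10 mM. The low dose was 1.51 ± 0.20 above water and the high dose 1.66 below it, so the low dose is the highest of the 3 levels. Cyp1a1 had the same order with 13.99 ± 0.53, 15.01 ± 0.11 and 13.10 ± 0.42, and so had Pc with 11.76 ± 0.27, 13.51 ± 0.32 and 11.34 ± 0.20. Among the named genes, Prkcb, Tmem255b, Zap70, Bdh1, Lpin2, Slc10a1, Gldc, C5, Egln3 and Dstl1 also lay at least 1 above water at 0.5 mM and below water at 10 mM. In Tmem255b the step from water to 10 mM did not pass the test (-0.94, adjusted p = 0.0512). Egln3 had a mean of 12.63 in water, and 0.5 mM arrays 1 and 2 lay nearer to it (13.30 and 13.63) than arrays 3, 4 and 5 (14.1 to 14.2). The step from water to 0.5 mM in Dstl1 did not pass the test without 0.5 mM arrays 3, 4 and 5 (1.24, adjusted p = 0.166).

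Fgf21 held the mirror image, with 13.09 ± 0.20 in water, 12.08 ± 0.29 at 0.5 mM and 14.63 ± 0.06 at 10 mM. A steady order was seen for Pck1, with 9.78 ± 0.58, 11.05 ± 0.22 and 13.08 ± 0.22, for Aass, with 12.01 ± 0.18, 12.96 ± 0.24 and 13.70 ± 0.11, and for Cyp4a1, with 13.39 ± 0.10, 14.98 ± 0.07 and 15.34 ± 0.08. In Cyp4a1 most of the distance from water was covered at 0.5 mM, and in Pck1 the larger step lay between the doses. Hamp lay level at the low dose, with 11.20 ± 0.19 in water, 11.18 ± 0.21 at 0.5 mM and 16.04 ± 0.10 at 10 mM.

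**Figure D4:**
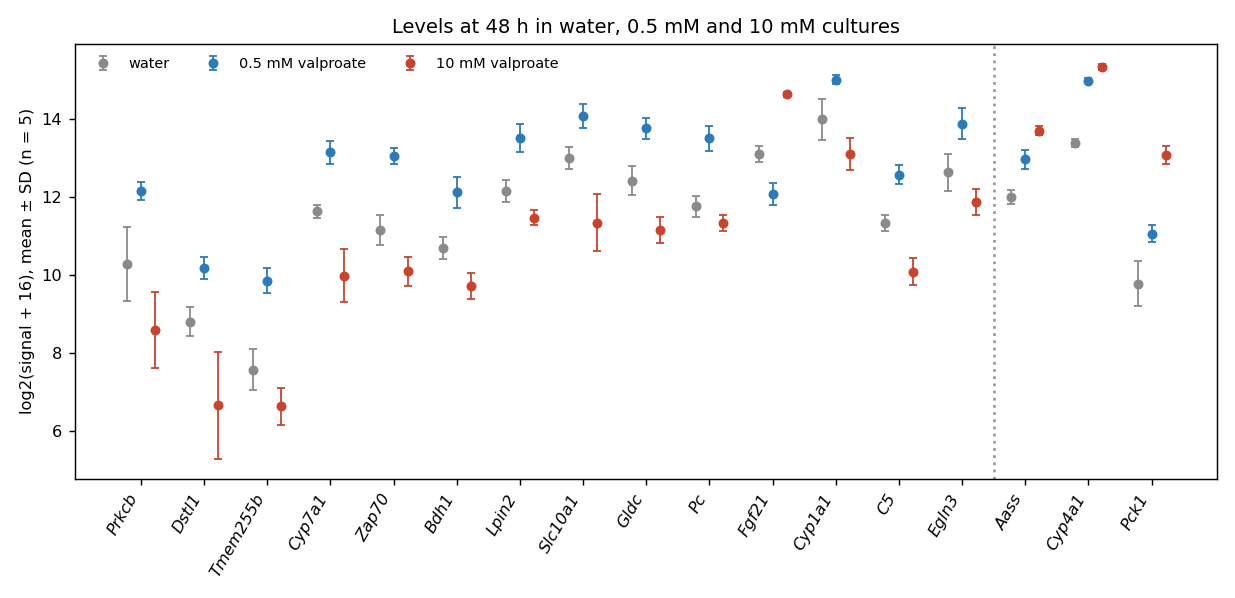
Mean ± SD (n = 5) on the log2(signal + 16) scale of 17 named genes at 48 h in water (grey), 0.5 mM (blue) and 10 mM (red). Left of the dotted line are the 14 genes whose 0.5 mM level lay at least 1 beyond water on the side away from 10 mM, of which Fgf21 alone dips and the others peak at 0.5 mM; right of it are 3 genes whose levels run in one order, Aass, Cyp4a1 and Pck1.

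The difference between the doses could also be set against that at 24 h, where the same doses were given to 5 and 5 other cultures. The test of the 48 h difference minus the 24 h difference called 1605 of 11604 genes, or 13.8%, 778 (6.70%) positive and 827 (7.13%) negative. It was at least 1 for 93 genes and at most -1 for 61. Without 0.5 mM 48 h arrays 3, 4 and 5 the counts were 417 positive and 384 negative. That fit has less power, so the lost calls do not show how far the comparison rests on those arrays. With the beta-actin ratio in the model and all arrays kept, 704 genes were positive and 685 negative.

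Some of the largest rises were larger at 48 h than at 24 h. Acot1 differed by 4.56 ± 0.33 at 24 h and 6.38 at 48 h, a gain of 1.83 ± 0.47 (adjusted p = 0.00996). Crip1 went from 4.08 ± 0.22 to 6.22, a gain of 2.15 ± 0.31 (adjusted p = 2.59e-05), Hamp from 3.82 ± 0.11 to 4.86, a gain of 1.04 ± 0.15 (adjusted p = 1.88e-05), and Igfbp2 from 2.02 ± 0.35 to 3.72. For Soat1, Nefm and Tubb2b the 24 h differences were 4.42 ± 0.37, 4.08 ± 0.23 and 3.95 ± 0.42, and the times did not differ by the test. In other genes most of the difference between the doses was found at 48 h. Car3, a muscle and fat carbonic anhydrase also found in male rat liver, differed by 0.49 ± 0.11 at 24 h and 2.74 ± 0.11 at 48 h, and its 48 h signals were 7017, 6663, 8044, 7752 and 7685 at 10 mM and 1130, 1200, 1000, 1018 and 1140 at 0.5 mM. Serpina6 went from 0.74 ± 0.14 to 2.78 and Pck1 from 0.81 ± 0.20 to 2.03. On the log2 scale Serpina6 lay at 11.2 to 11.7 at 24 h and 11.1 to 11.5 at 48 h in the 10 mM cultures. At 0.5 mM it lay at 10.5 to 10.8 and 8.1 to 8.8, and in water at 10.2 to 10.6 and 7.9 to 8.7. Its wider gap at 48 h thus came with lower levels at 0.5 mM. In Hamp, Igfbp2 and Car3 the wider gap came with lower levels at 0.5 mM and higher ones at 10 mM. At 0.5 mM, Hamp lay at 11.48 to 12.07 at 24 h and 10.97 to 11.46 at 48 h. At 10 mM it lay at 15.44 to 15.75 and 15.89 to 16.16. Igfbp2 lay at 7.01 to 8.86 and 6.46 to 7.35 at 0.5 mM, ranges that overlap. At 10 mM it lay at 9.49 to 10.24 and 10.34 to 10.71. Acot1 was not lower at 0.5 mM, with 6.94 to 8.18 and 7.57 to 8.21.

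A few genes turned round. Sult1e1, the estrogen sulfotransferase, was lower at 10 mM at 24 h (-1.72 ± 0.17) and higher at 48 h (0.52 ± 0.17), a difference between times of 2.25 ± 0.25 (adjusted p = 2.33e-07). Its 48 h groups overlapped, and the 48 h change was 0.15 (adjusted p = 0.630) without 0.5 mM arrays 3, 4 and 5. C4bpb turned from -0.61 ± 0.10 to 1.07 and Cyp2e1 from -0.81 ± 0.10 to 0.61. In the opposite sense Ccn2, a matrix growth factor, turned from 1.30 ± 0.10 to -0.44 ± 0.10, a difference of -1.74 ± 0.14 (adjusted p = 4.37e-10), and its 48 h change was -0.25 (adjusted p = 0.0852) without 0.5 mM arrays 3, 4 and 5. The fall of Cyp2d2 was -1.17 ± 0.14 at 24 h and -2.47 at 48 h, and that of C9 was -0.71 ± 0.10 and -1.73. Tmed1, of vesicle transport, held the largest difference between times, 2.40 ± 0.44 (adjusted p = 0.000451), with a fall at 24 h of -3.76 ± 0.31 that was smaller at 48 h, -1.35 ± 0.31. Cdca8, of the chromosomal passenger complex, stood 3.28 higher at 10 mM at 24 h and did not pass the test at 48 h (1.00 ± 0.53). It passed without 0.5 mM arrays 3 and 4 (1.46, adjusted p = 0.0363). It did not pass without 0.5 mM arrays 3, 4 and 5 (1.36, adjusted p = 0.104) or without 10 mM array 2 (0.76, adjusted p = 0.288). On the log2 scale its 48 h levels at 10 mM were split, 6.76, 9.27, 9.44, 6.93 and 9.18.

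By list, the counts are read beside the 6.70% of all genes with a positive and the 7.13% with a negative difference between times. Of the peroxisomal genes 12 of 25 had a positive difference and 0 a negative one, of the PPARalpha targets 11 of 24 and 1, of mitochondrial beta-oxidation 9 of 28 and 0, and of the thioesterases 4 of 10 and 0. The peroxisomal and mitochondrial lists had negative medians at 48 h (-0.30 and -0.37), so a positive difference there can be a smaller fall. Of the cholesterol synthesis genes 0 of 20 had a positive and 11 a negative difference, of fatty acid and triglyceride synthesis 0 of 25 and 7, and of coagulation 4 of 23 and 10. Of the cytosolic ribosomal proteins 4 of 40 had a positive and 0 a negative difference, with a median of 0.17. All these list counts use every array and the scaling as deposited. The counts over all genes moved when either was changed.

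**Figure D5:**
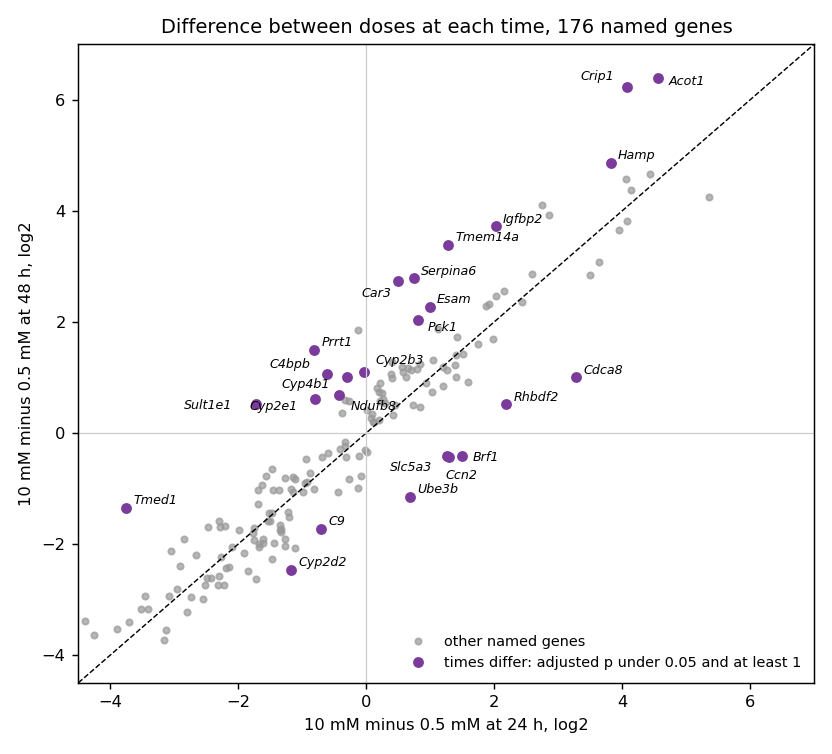
Difference between 10 mM and 0.5 mM (log2) at 24 h (horizontal) and at 48 h (vertical) for the 176 named genes; the dashed line marks equal differences. Purple points are the 25 genes whose difference changed between the times by at least 1 with an adjusted p under 0.05, with Acot1, Crip1, Hamp and Car3 above the line and Ccn2, Cyp2d2 and C9 below it.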

How the data were processed

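Total RNA of 30 rat hepatocyte cultures, 5 in each of 6 groups, was hybridised to 1-colour oligonucleotide arrays. The authors deposited 1 MAS5 signal per probeset, a linear intensity, per the submitters' processing notes. Its version and settings were not given in the sources used here, and the trimmed mean of every array was 1499.94. Of 31099 probesets, 20826 had 1 gene symbol, 436 several and 9780 none (20758 were matched to current symbols by gene ID), and 57 control probesets were set aside. Probesets of the same gene can differ, and the one with the highest mean over all arrays stands for the gene.

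Signals were taken as log2(signal + 16), and probesets with a mean under the 30th percentile (log2 level 7.39) were left out, which kept 21729 probesets and 11604 of 14217 genes. A linear model with 6 group means was fitted with limma 3.58.1 (lmFit and eBayes with a trend, R 4.3.3), and two-sided p-values were adjusted by the Benjamini-Hochberg method over all probesets tested. The procedure was tested on simulated data. The 10 arrays compared limit the precision. Since 24 residual degrees of freedom are pooled over 30 arrays, a p-value rests on the spread of all groups.

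Genes named were the 12 largest rises and falls without overlap, up to 2 called members per direction of each list, a few fixed genes, and the 6 largest differences per direction between times. The members and lists were chosen with earlier results of these data known. Alternatives were other pseudocounts, filters, normalizations, array weights, the beta-actin ratio as a covariate, runs of 6 arrays as a block, and arrays left out. Promoters came from the RefSeq table of build GRCr8, matched by symbol or gene ID. Plots were made in Python 3.11.15 (matplotlib 3.10.9).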

Additional observations from a re-analysis of the deposited data

Results flagged for a closer look

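Over the 176 named genes and the 3' to 5' ratios of beta-actin and GAPDH, 28 of 356 groups of 5 arrays held a value set far apart from the other 4, each for a gene, where chance flags about 1 in 20 groups. Values here are levels on the log2(signal + 16) scale. On 10 mM array 2 the level stood apart in 19 genes, in each case on the side of the low dose. The level was the lowest of its group for Cd24 (11.61), Uchl1 (11.07), Crot (14.08), Bhlhe41 (8.816) and Dcn (5.416). For genes of signalling and transport it was the highest for Prkcb (10.3), Tmem255b (7.456), Slc16a7 (13.25), Slc37a4 (13.23) and Abcc3 (11.23). For enzymes it was the highest for Abat (11.05), Hmox1 (13.45), Aox1 (12.66) and Sirt4 (9.657). It was also the highest for Cryab (12.67), Kng2l1 (12.59), C9 (12.33), Apoa5 (12.69) and Anxa4 (12.59).

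On other 10 mM arrays, replicate 4 stood highest for Amacr (12.56) and replicate 1 lowest for Hdac10 (7.672). At 0.5 mM, replicate 3 stood lowest for Ndrg4 (7.046), Aldh6a1 (14.42) and Gmnn (7.042) and highest for Cdca8 (9.27). Replicate 5 stood lowest for Fcgr2b (9.173), replicate 2 highest for Sirt4 (10.39) and replicate 1 highest for Dcn (7.341).

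The difference between the doses changed between 24 h and 48 h for 25 named genes, by the test of the difference itself (limma) with an adjusted p under 0.05 and a size of at least 1. It moved in favour of 10 mM for Tmed1 (2.402), Prrt1 (2.312), Car3 (2.252), Sult1e1 (2.245), Crip1 (2.148), Tmem14a (2.114) and Serpina6 (2.035). For Tmed1 this was a smaller fall at 48 h. Smaller gains were those of Acot1 (1.825), Igfbp2 (1.696), C4bpb (1.675), Cyp2e1 (1.415), Cyp4b1 (1.311), Esam (1.277), Pck1 (1.215), Cyp2b3 (1.131), Ndufb8 (1.093) and Hamp (1.041). It moved against 10 mM for Cdca8 (-2.281), Brf1 (-1.896), Ube3b (-1.84), Ccn2 (-1.735), Slc5a3 (-1.684), Rhbdf2 (-1.677), Cyp2d2 (-1.297) and C9 (-1.02).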

How the results depend on the processing

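The titles number the arrays from 1 to 30, and each run of 6 holds every group once, but the labels name no pairing or batch. Deviations from the group means of the 10 mM and 0.5 mM arrays at 48 h correlated by -0.021 to 0.085 within a run, across probesets, and in 1 of 5 runs was the array of the same run the best match. With the run as a block in a paired fit, 5796 probesets were higher and 4301 lower at 48 h. No named call at 48 h changed with the block, and for the difference between times those of Cdca8 (-2.28, adjusted p = 0.0525) and Ube3b (-1.84, adjusted p = 0.0513) were lost. Of the 176 named genes, 148 kept their direction and their side of the threshold at 48 h under all 25 alternatives other than a tested minimum of 2-fold, which ended 80 calls. Under that minimum the 48 h comparison called 419 probesets higher and 445 lower, or 283 genes higher and 322 lower, and the difference between times 5 and 1, for probesets and for genes, also at a size of at least 1.

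The difference between times moved most. Array weights gave 1733 probesets positive and 1827 negative, 1289 genes negative and 101 at -1 or beyond. Centring on ribosomal protein genes gave 425 probesets and 298 genes positive, 49 genes at 1 or beyond and 112 at -1 or beyond. Without 0.5 mM 48 h arrays 3 and 4, 716 probesets and 518 genes were negative. Without arrays 3, 4 and 5, 640 probesets were positive and 510 negative, 417 genes positive and 384 negative, 35 of them at -1 or beyond. Leaving out 1 array at a time gave 49 to 98 genes at -1 or beyond, with 98 without 0.5 mM 48 h replicate 1. The cause was not tested.

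Directions turned at 48 h with the mean of a gene's probesets for Hspa9 (0.12), Fgb (-0.15) and Cdkn1a (0.077), and without arrays 3, 4 and 5 for Cdkn1a (0.034). In the difference between times, Hdac1 turned with the beta-actin ratio (-0.18), without arrays 3 and 4 (-0.040) and without arrays 3, 4 and 5 (-0.26). Plin2 turned with ribosomal centring (-0.044) and quantile normalization (-0.084), which also turned Alb (-0.025). Cdkn1a turned with the probeset mean (0.042) and without arrays 3, 4 and 5 (0.026). The medians of 7 of 41 lists turned sign under some setting: endoplasmic reticulum, p53, clock, ribosomal, stellate, endothelial and lymphocyte genes. Signals near the filter level, as for Crip1 at 0.5 mM, limit the size of a change more than its direction.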
